A study of Mus musculus with 6 samples.

Results

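The genes examined were 9 that handle high-energy phosphate: the adenylate kinase genes Ak1, Ak3, Ak4, Ak5 and Ak6, the creatine kinase genes Ckb and Ckmt1, the creatine synthesis gene Gatm and the creatine transporter gene Slc6a8. They were taken by symbol from 35127 genes, and all 9 were found and passed the filter on low counts. The choice was made with the contrast of tumour-associated and sham astrocytes already known, so their values in that contrast are given as a description, with no test.

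RNA was sequenced from mouse astrocytes in 6 libraries. In the 3 tumour-associated libraries the astrocytes had been taken from brains with an allograft of SCLC, small-cell lung cancer, which is a neuroendocrine carcinoma. In the 3 sham libraries they had been taken from brains given a sham injection. The sources used here do not give strain, age, the graft's cell line, the time after grafting, the way astrocytes were purified or the animals behind each library. Because the graft is an allograft, tumour and host share a species, and reads cannot be assigned to either by sequence. The p-values below measure how far these libraries vary among themselves, and that variation may be technical.

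Adenylate kinases swap phosphates between adenine nucleotides, turning a pair of ADP molecules into ATP and AMP, and so link the energy state of a cell to AMP sensing. Creatine kinases store phosphate from ATP on creatine and hand it back where ATP is used, and their isozymes sit in the cytosol and at the inner mitochondrial membrane. In brain, creatine is made in steps begun by GATM and completed by GAMT, and enters cells through SLC6A8. Astrocytes are known to hold large amounts of brain-type creatine kinase.

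Totals ranged from 22133723 to 25800897 estimated reads per library. Libraries of the tumour group lay close together, as did sham libraries 1 and 2, with a root mean square log2 difference of 0.322 to 0.352 between them. Sham library 3 stood apart, at 0.795 to 0.802 from the other sham libraries, which exceeds the 0.734 to 0.749 between tumour and sham libraries. The counts of the close pairs still differed by more than sampling (chi-square over its degrees of freedom, 2.83 to 3.64), so all 6 libraries were kept as separate samples. All 10 astrocyte markers had at least 1 TPM, a measure of abundance per transcript length, in every library. Their summed level was 1303 to 1377 TPM in the tumour libraries, against 1933, 1965 and 1133 TPM in sham libraries 1 to 3. Of the other cell types, markers of mural cells and fibroblasts were the most abundant, at 764 to 770.3 TPM in the tumour libraries and 759, 777 and 1104 TPM in sham libraries 1 to 3. Neuronal markers summed to 111 to 119 TPM in the tumour and 104 to 158 TPM in the sham libraries, nearly all from Stmn2 and Map2. Oligodendrocyte markers summed to 74.8 to 80.1 and 51.5 to 57.6 TPM. Microglial markers summed to 54.0 to 55.8 TPM in the tumour and 47.5 to 67.7 TPM in the sham libraries, nearly all from Tmem119, and endothelial markers to 197 to 201 and 179 to 203 TPM, nearly all from Cdh5. Markers of a cell type went both ways. Rbfox3 of neurons and Cldn5 of endothelium had 0 reads in every library. Over the libraries Stmn2 had 76.9 to 120 TPM, Map2 22.6 to 32.6 TPM and Cdh5 170 to 197 TPM.

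The mitochondrial adenylate kinase gene Ak4 was 25.3-fold higher in the tumour libraries, while the cytosolic kinase genes Ak1 and Ckb were 1.92-fold and 1.82-fold lower. The other 6 genes differed by less than 1.2-fold between the group means, with log2 differences between -0.20 and 0.14. Levels are reads scaled to library size and composition (CPM) unless TPM is named. The edgeR fit called 3 of the 9 genes at an adjusted p under 0.05, 1 higher and 2 lower, beside 20.9% of the 14359 genes tested, 10.5% higher and 10.4% lower. The CPM ranges of the groups did not overlap in 4 of the 9 genes, beside 44.1% of the tested genes. The tumour range lay above in 2, beside 22.2% of tested genes, and below in 2, beside 21.9%. Since the genes were chosen on this contrast, nothing is read from these counts.

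**Figure D1:**
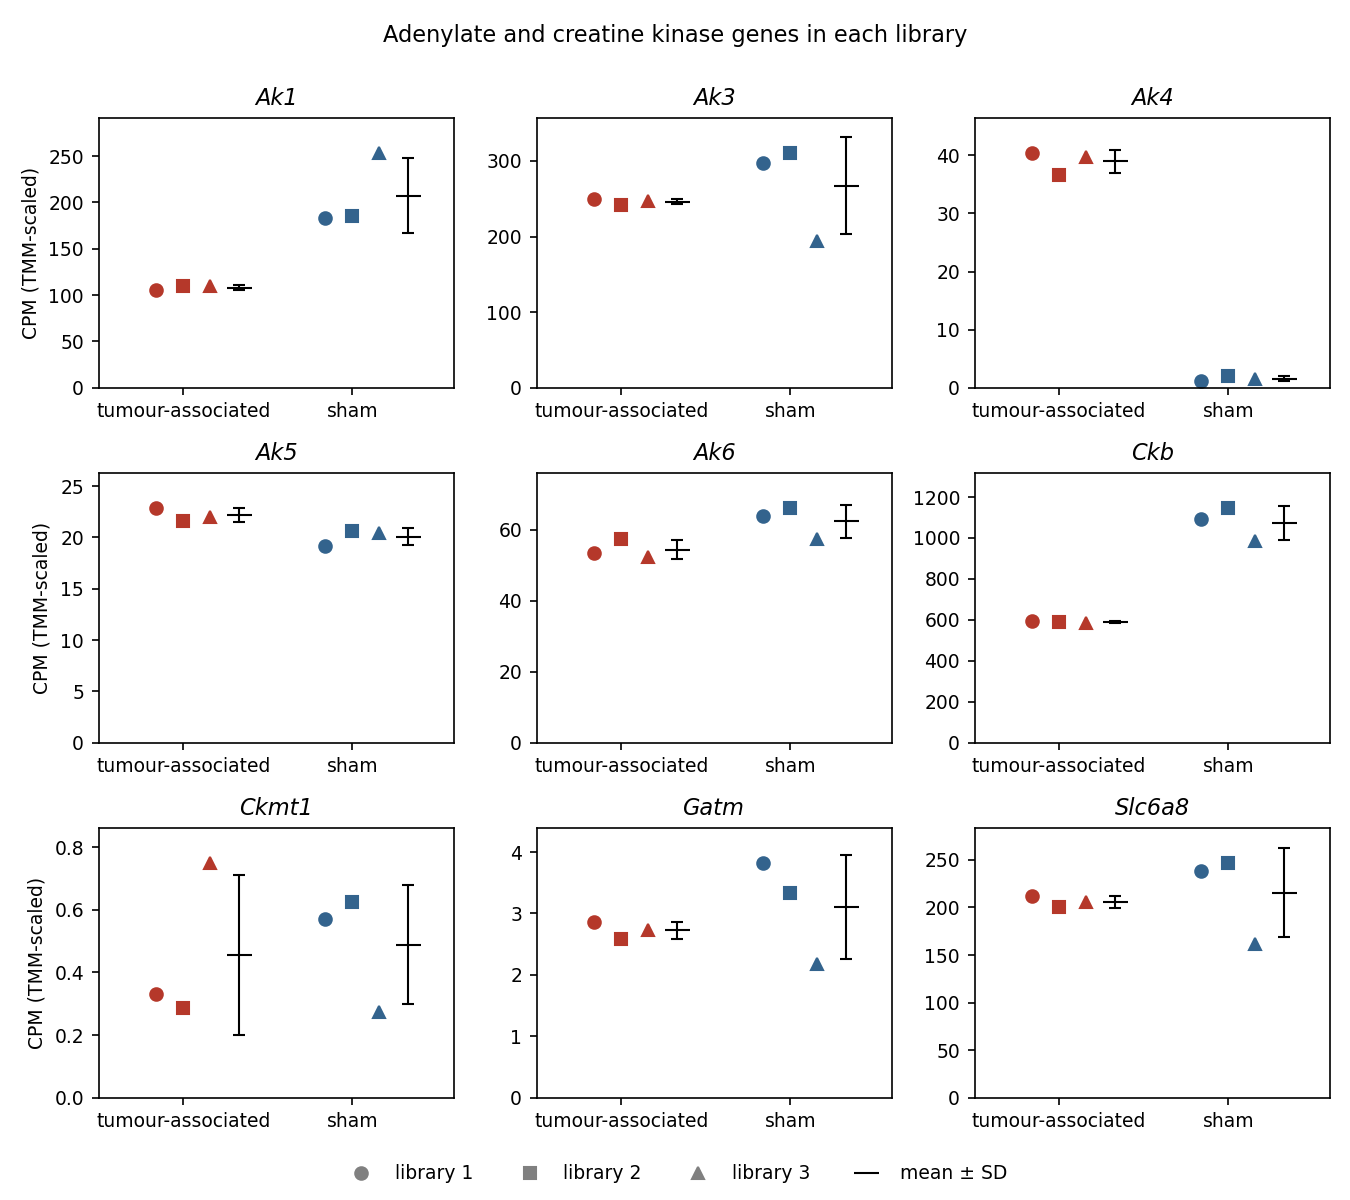
Level of each of the 9 genes (y axis, TMM-scaled CPM, each panel from 0) in the tumour-associated libraries (left, red) and sham libraries (right, blue), with the mean ± SD over 3 libraries at the right of each group. Ak4 stands at 36.6 to 40.5 CPM in the tumour libraries and 1.14 to 2.04 in the sham libraries, all tumour points of Ckb and Ak1 lie under all sham points, and sham library 3 lies below both other sham libraries for Ak3, Slc6a8 and Gatm.

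Ak4 encodes an adenylate kinase family member of the mitochondrial matrix with weak kinase activity, a known target of the hypoxia-inducible factor HIF-1. The gene lies on chromosome 4 from 101419277 to 101466995 on the plus strand of mm10. It had 40.5, 36.6 and 39.8 CPM in tumour libraries 1 to 3, against 1.14, 2.04 and 1.41 CPM in sham libraries 1 to 3. These levels rest on 977, 891 and 1007 reads in the tumour libraries, against 26, 49 and 31 in the sham libraries. The groups were far apart, and sham library 3 did not stand out among the sham libraries for this gene. The group means were 39.0 ± 2.04 and 1.53 ± 0.46 CPM (SD, n = 3 each), a log2 difference of 4.66. Against sham libraries 1 and 2 the log2 difference of the means was 4.61, and against sham library 3 it was 4.79.

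The graft's cell type is marked by neuroendocrine genes, and their part in the Ak4 level was not tested. The summed level of 9 such markers was 34.8 to 38.5 TPM in the tumour libraries and 40.7 to 51.8 TPM in the sham libraries, most of it from Calca and Uchl1. Calca had 18.2 to 19.6 TPM in the tumour libraries, against 29.3, 29.5 and 8.31 TPM in sham libraries 1 to 3. Epcam had 0.25, 0.24 and 0.17 TPM in tumour libraries 1 to 3 and 0 TPM in all sham libraries, and Chga, Dll3 and Neurod1 stayed below 1 TPM in every library. In bulk RNA a larger number of cells expressing a gene and more RNA per cell cannot be told apart.

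Almost all Ak4 reads fell on the 3 transcripts that carry the full coding sequence of 223 residues, Ak4-201, Ak4-202 and Ak4-203, which differ upstream of the start codon. Together they had 15.5, 13.2 and 14.9 TPM in tumour libraries 1 to 3 and 0.423, 0.769 and 0.521 TPM in sham libraries 1 to 3. The estimate moved between these transcripts from library to library, with Ak4-201 at 12.02, 0 and 13.95 TPM and Ak4-202 at 0, 12.2 and 0 TPM in tumour libraries 1 to 3. The start site in use was therefore not resolved by these files. The TPM summed over all Ak4 transcripts, 18.1, 27.3 and 22.1 in the tumour libraries, was raised by Ak4-204, a fragment of 462 bases that drew 39.7 reads and 11.7 TPM in tumour library 2. A processed pseudogene, Ak3l2-ps, matches Ak4 over 672 bases with 99.6% identity, and the files assign it 0 reads in every library.

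The promoter windows of Ak4 are shown because its level differed most, and those of Ak1 because its transcripts begin at separate start sites. Each holds 300 bases of RefSeq sequence on the GRCm38.p6 assembly, from 250 before to 50 after an annotated start. Both strands were searched for ACGTG and GCGTG, the cores to which hypoxia-inducible factors are known to bind. Capitals mark the matches on either strand, so that GCGTG on the minus strand reads CACGC. The first Ak4 window, chr4:101419039-101419338, covers the starts of Ak4-201 to Ak4-203, and the second, chr4:101419453-101419752, surrounds a RefSeq start at 101419703, close to that of Ak4-204.
Ak4 window 1: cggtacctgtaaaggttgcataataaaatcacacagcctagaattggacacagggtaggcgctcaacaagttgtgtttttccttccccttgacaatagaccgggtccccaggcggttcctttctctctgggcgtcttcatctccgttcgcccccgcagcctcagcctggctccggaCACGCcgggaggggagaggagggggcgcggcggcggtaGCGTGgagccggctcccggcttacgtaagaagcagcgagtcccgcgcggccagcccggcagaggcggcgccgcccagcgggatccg
Ak4 window 2: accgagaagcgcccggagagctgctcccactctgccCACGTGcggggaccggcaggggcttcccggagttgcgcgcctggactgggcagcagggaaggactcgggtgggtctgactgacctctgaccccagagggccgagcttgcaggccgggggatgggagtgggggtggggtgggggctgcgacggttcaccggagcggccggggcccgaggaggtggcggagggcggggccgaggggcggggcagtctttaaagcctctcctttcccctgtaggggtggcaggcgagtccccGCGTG
The first window held GCGTG at 2 places and no ACGTG. The second held ACGTG on both strands, overlapping in CACGTG, and GCGTG at its end. Of all 32817 windows in the table, 19.6% held ACGTG, 32.4% held GCGTG and 43.8% held either, so such matches are common in promoters of this length. Of 14 windows found for 7 of the 9 genes, 9 held a match. The Ak4 windows starting at 101419039, 101419062 and 101419071 overlap almost wholly and hold the same GCGTG places. These counts are therefore not of separate promoters and are not set against the share over all windows. The Ak6 window, which surrounds the start of Ak6-202 at 100651343 and not that of Ak6-201 at 100650979, held GCGTG 5 times. The Gatm window held each motif once, while the windows of Ckb, Ak3 and Ckmt1 held neither.

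Ak3 is the closest relative of Ak4 in the same compartment, a matrix kinase that uses GTP to phosphorylate AMP. It lies on chromosome 19 from 29020833 to 29047961, minus strand. It had 249, 242 and 247 CPM in tumour libraries 1 to 3, against 297, 311 and 194 CPM in sham libraries 1 to 3. The tumour libraries fell between sham library 3 and the other sham libraries, and the groups overlapped. The means were 246 ± 3.74 and 267 ± 64.1 CPM (SD, n = 3 each), a log2 difference of -0.12. The log2 difference was -0.31 against sham libraries 1 and 2 and 0.35 against sham library 3, so its direction depended on the sham library used. The 3' part of Ak3 overlaps the opposite-strand gene Cdc37l1, and without strand information reads of their shared stretch cannot be separated.

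Per length, full-length Ak4 transcripts were 10.1%, 9.25% and 10.2% of the Ak3 level in tumour libraries 1 to 3. In sham libraries 1 to 3 they were 0.249%, 0.422% and 0.447% of it. Ak4 thus remained the minor matrix kinase transcript in every library.

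Ak1 encodes the main cytosolic adenylate kinase and lies on chromosome 2 from 32621758 to 32635058, plus strand. It had 105, 109 and 109 CPM in tumour libraries 1 to 3, against 183, 185 and 254 CPM in sham libraries 1 to 3. Every tumour library lay below every sham library, and sham library 3 was the highest. The means were 108 ± 2.30 and 207 ± 40.2 CPM (SD, n = 3 each), a log2 difference of -0.94. Against sham libraries 1 and 2 it was -0.77 and against sham library 3 it was -1.23. The sum of the 6 mural cell and fibroblast markers, given above, was also highest in sham library 3, but its members moved in different directions. Col3a1 had 179.9 to 186 TPM in the tumour libraries, against 306, 326 and 435 TPM in sham libraries 1 to 3, an order like that of Ak1. Acta2 had 182 to 187 TPM in the tumour libraries, against 73.6, 76.4 and 206 TPM in sham libraries 1 to 3, and Dcn had 155 to 159 TPM, against 126, 119.95 and 53.1 TPM. Their part in the Ak1 level was not tested.

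Ak1 is read from several start sites, and the protein differs with the start. Ak1-201 begins in an exon of its own and codes for 210 residues, the form known in mouse as the membrane-bound AK1-beta. Ak1-202 begins upstream and codes for the usual 194 residues. The window upstream of Ak1-202, chr2:32625187-32625486, and that upstream of Ak1-201, chr2:32629250-32629549, are both on the plus strand and marked as above.
Ak1-202 start: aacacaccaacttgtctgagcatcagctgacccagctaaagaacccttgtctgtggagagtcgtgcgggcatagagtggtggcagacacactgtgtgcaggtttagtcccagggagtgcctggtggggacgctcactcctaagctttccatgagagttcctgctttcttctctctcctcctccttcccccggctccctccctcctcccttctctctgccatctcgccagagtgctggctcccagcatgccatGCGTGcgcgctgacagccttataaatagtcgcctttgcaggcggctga
Ak1-201 start: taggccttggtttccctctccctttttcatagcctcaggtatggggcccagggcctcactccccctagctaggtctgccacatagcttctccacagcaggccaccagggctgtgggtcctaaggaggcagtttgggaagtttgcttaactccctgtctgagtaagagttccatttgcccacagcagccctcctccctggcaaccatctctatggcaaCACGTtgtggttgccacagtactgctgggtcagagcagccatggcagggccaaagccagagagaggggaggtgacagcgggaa
The Ak1-202 window held GCGTG once, just past the start, and the Ak1-201 window held ACGTG once on the minus strand. Ak1-201 had 15.5, 29.1 and 30.5 TPM in tumour libraries 1 to 3, against 54.6, 57.9 and 65.4 TPM in sham libraries 1 to 3. Ak1-202 had 61.8, 49.5 and 48.4 TPM in the tumour libraries, against 69.9, 69.6 and 113 TPM in the sham libraries. Both transcripts had all tumour values under all sham values, with means of 25.0 ± 8.25 against 59.3 ± 5.55 TPM for Ak1-201 and 53.2 ± 7.43 against 84.1 ± 24.9 TPM for Ak1-202 (SD, n = 3 each). As a share of Ak1, however, Ak1-201 was 16.3%, 31.7% and 32.9% in the tumour libraries and 36.6%, 37.3% and 28.5% in the sham libraries. These shares overlapped between the groups, and tumour library 1 stood apart from the others.

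Ak5 encodes a second cytosolic adenylate kinase that is enriched in brain. It had 22.9, 21.62 and 21.999 CPM in tumour libraries 1 to 3, against 19.1, 20.7 and 20.4 CPM in sham libraries 1 to 3. The groups did not overlap, by a narrow margin, with means of 22.2 ± 0.65 and 20.1 ± 0.82 CPM (SD, n = 3 each) and a log2 difference of 0.14. The gene lies on chromosome 3 from 152462815 to 152668360, minus strand, and its coding transcript Ak5-201 spells 562 residues. On the TPM scale the gene's groups overlapped, at 9.77 to 11.3 TPM in the tumour libraries and 8.14 to 12.3 TPM in the sham libraries. That sum includes Ak5-202, a retained-intron fragment of 385 bases given 4.48 TPM from 10 reads in sham library 3. Ak5-201 alone did not overlap, at 8.355 to 9.142 TPM in the tumour and 7.21 to 7.98 TPM in the sham libraries.

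Ak6 encodes a nuclear adenylate kinase with a role in making the small ribosomal subunit, but most of what is counted under its name is another coding sequence. The gene lies on chromosome 13 from 100650979 to 100666359, plus strand, and overlaps Taf9 on the same strand, which encodes a subunit of the general transcription factor TFIID. In GENCODE M21, Ak6-202 carries exactly the coding interval of Taf9-201, with 264 residues, and Ak6-205 ends after 41 residues in the exon that holds the TAF9 sequence. Ak6-201 alone has the full AK6 reading frame of 172 residues. It drew 20.9%, 16.6% and 19.7% of the reads counted for Ak6 in tumour libraries 1 to 3, against 18.0%, 16.9% and 21.8% in sham libraries 1 to 3. The sum over transcripts is thus mainly a count of RNA that holds the TAF9 coding exon.

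Summed over transcripts, Ak6 had 53.5, 57.4 and 52.4 CPM in tumour libraries 1 to 3, against 63.9, 66.3 and 57.3 CPM in sham libraries 1 to 3. The means were 54.4 ± 2.63 and 62.5 ± 4.64 CPM (SD, n = 3 each), a log2 difference of -0.20, and the ranges of the groups met at the level of sham library 3. Ak6-201 alone had 11.2, 9.55 and 10.3 CPM in the tumour libraries and 11.5, 11.2 and 12.5 CPM in the sham libraries. Its log2 difference of the means was -0.19, close to that of the sum, and the groups nearly met. Ak6-202 and Ak6-205 traded reads between libraries: Ak6-205 had 14.6, 17.5 and 29.6 TPM in the tumour libraries and 49.2, 59.6 and 32.9 TPM in the sham libraries. The sum of both was 73.3 to 82.2 TPM in the tumour libraries and 78.7 to 94.1 TPM in the sham libraries, which overlapped. Processed pseudogenes with 96.6% and 98.4% identity to Ak6 transcripts were assigned at most 3 reads in a library.

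**Figure D2:**
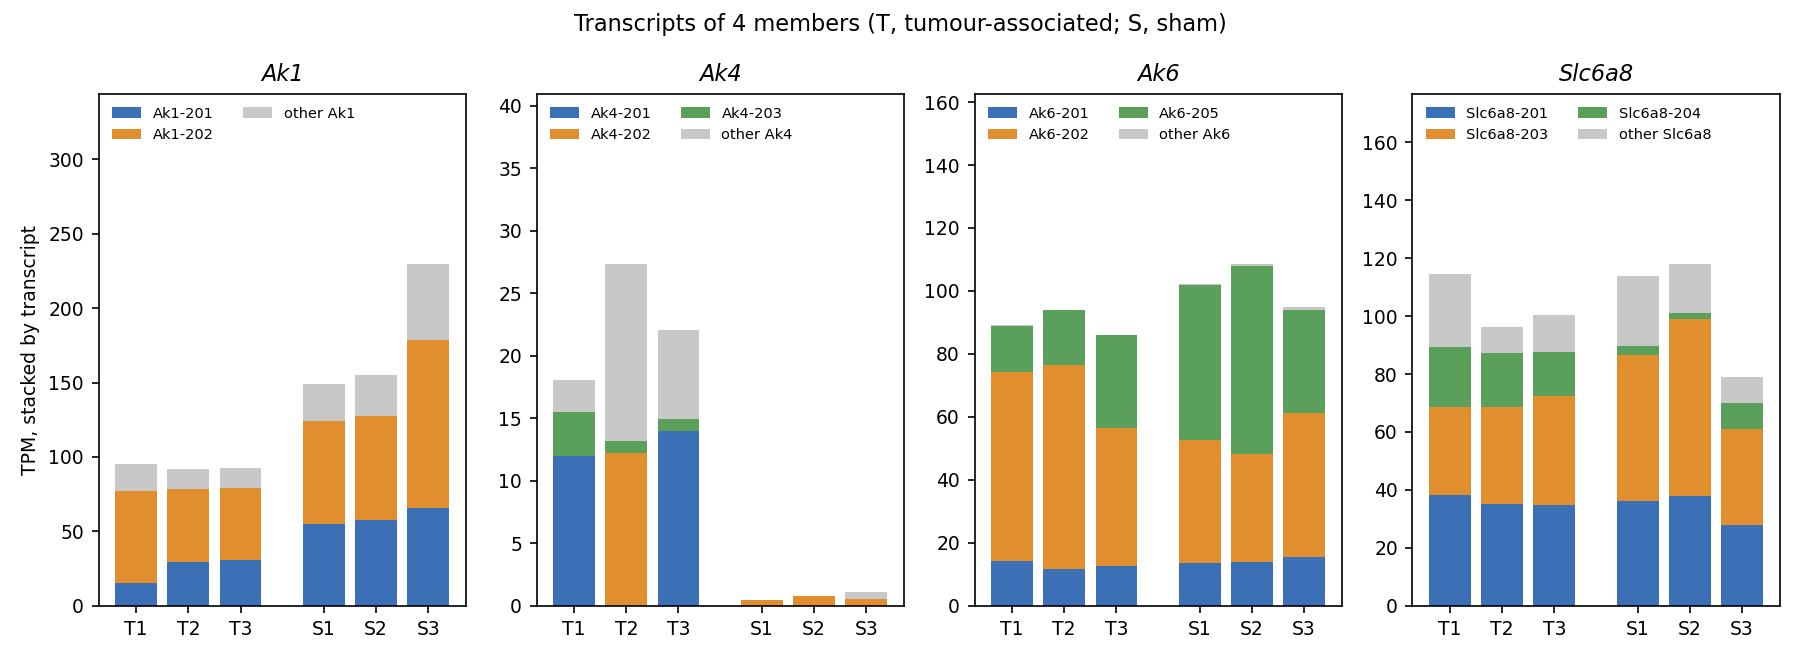
TPM of Ak1, Ak4, Ak6 and Slc6a8 in each library (T1 to T3 tumour-associated, S1 to S3 sham), stacked by transcript, with the remaining transcripts of the gene in grey and each y axis from 0. Ak6-201, the AK6-coding transcript, is 11.7 to 14.3 TPM in the tumour libraries and 13.7 to 15.3 in the sham libraries, Ak4-201 and Ak4-202 replace each other between tumour libraries, and Slc6a8-204 is larger in each tumour library than in any sham library.

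Among the 5 adenylate kinase genes, with Ak6 taken as Ak6-201, Ak3 and Ak1 made up most of the summed TPM. That sum was 291, 285 and 286 TPM in tumour libraries 1 to 3, against 342, 361 and 375 TPM in sham libraries 1 to 3, and so was lower in every tumour library. Ak1 held 32.9%, 32.3% and 32.4% of it in the tumour libraries and 43.7%, 42.9% and 61.2% in the sham libraries. Ak3 held 50.1% to 52.7% in the tumour libraries, much as in sham libraries 1 and 2 with 49.8% and 50.4%, whereas sham library 3 had 31.1%. Counted over all its transcripts, Ak4 accounted for 6.22% to 9.60% in the tumour libraries and 0.124% to 0.299% in the sham libraries. The highest share, in tumour library 2, was raised by the fragment Ak4-204, at 11.7 TPM beside 13.2 TPM of full-length transcripts. Ak5 held 3.36% to 3.95% in the tumour libraries and 2.38% to 3.29% in the sham libraries, and Ak6-201 held 4.12% to 4.92% and 3.81% to 4.09%. The shares of Ak1, Ak4, Ak5 and Ak6-201 thus did not overlap between the groups, by a narrow margin for Ak5 and Ak6-201. A share also depends on the sum, which was lower in every tumour library. In TPM itself Ak5 and Ak6-201 overlapped between the groups. The mean of Ak6-201 was 12.9 TPM in the tumour libraries and 14.3 TPM in the sham libraries, although its share was higher in the tumour libraries. Sham library 3 differed from its group most in Ak1 and Ak3.

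**Figure D3:**
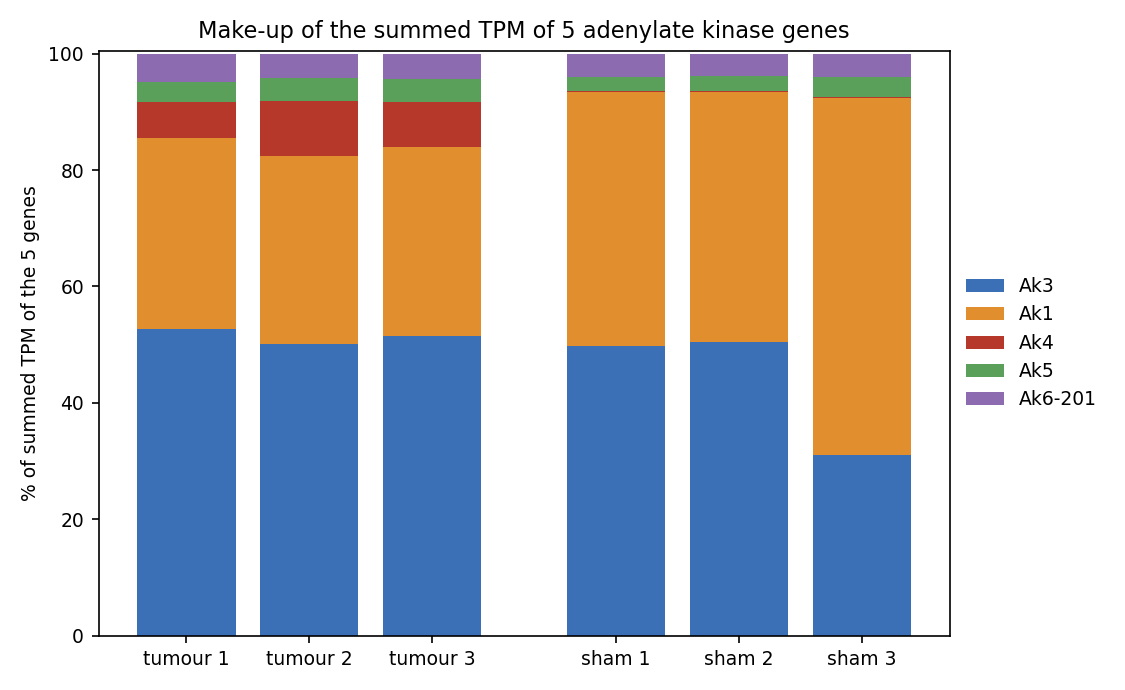
Share of each of the 5 adenylate kinase genes in their summed TPM (y axis, percent) in the tumour-associated libraries (left) and the sham libraries (right), with Ak6 drawn as its AK6-coding transcript Ak6-201. Ak4 is visible as 6.22% to 9.60% in the tumour libraries and is at most 0.299% in the sham libraries, and sham library 3 has more Ak1 and less Ak3 than every other library.

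Ckb, the brain-type cytosolic creatine kinase gene, was the most abundant of the 9 genes per length in every library. It lies on chromosome 12 from 111669361 to 111672338, minus strand. It had 597, 587 and 585 CPM in tumour libraries 1 to 3, against 1091, 1148 and 983 CPM in sham libraries 1 to 3. The tumour libraries varied little among themselves, and each lay well below the lowest sham library. The means were 589.6 ± 6.19 and 1074 ± 83.5 CPM (SD, n = 3 each), a log2 difference of -0.87. It was -0.92 against sham libraries 1 and 2 and -0.74 against sham library 3, so the direction did not rest on the library that stood apart. The astrocyte markers went both ways. Gja1 had 292 to 304 TPM in the tumour libraries, against 642, 646 and 401 TPM in sham libraries 1 to 3, and Gjb6 was likewise lower in every tumour library. Aldh1l1 had 145 to 151 TPM in the tumour libraries, against 92.4, 98.2 and 121 TPM in sham libraries 1 to 3. Their part in the Ckb level was not tested.

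The coding transcript Ckb-201, of 381 residues, made up 93.0% to 94.8% of the Ckb TPM in the tumour libraries and 94.5% to 95.5% in the sham libraries. It had 557, 533 and 523 TPM in tumour libraries 1 to 3, against 969, 1062 and 898 TPM in sham libraries 1 to 3. The lower level was thus that of the coding transcript. A processed pseudogene with 96.8% identity over 1149 bases, Gm12892, was assigned 3 to 8 reads in the tumour libraries and 8 to 11 in the sham libraries.

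Ckmt1, the gene of the mitochondrial creatine kinase found in brain and other tissues, was near the limit of detection. It lies on chromosome 2 from 121357714 to 121363737, plus strand. Tumour libraries 1 to 3 held 8, 7 and 19 of its reads, or 0.331, 0.288 and 0.750 CPM. Sham libraries 1 to 3 held 13, 15 and 6, or 0.572, 0.623 and 0.272 CPM. The groups overlapped fully, and a difference was not detectable at this depth. The muscle isozyme genes, not among the 9, were lower still. Ckmt2 had 0 reads in all libraries, which allows up to 0.118 to 0.136 CPM per library at 3 reads for counting error only, and Ckm had 0 to 0.0831 CPM. In every library Ckb was therefore nearly all of the creatine kinase RNA.

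Gatm, which encodes the mitochondrial amidinotransferase that joins arginine and glycine in the step that begins creatine synthesis, was low. It lies on chromosome 2 from 122594467 to 122611303, minus strand. It had 2.86, 2.59 and 2.73 CPM in tumour libraries 1 to 3, against 3.83, 3.33 and 2.18 CPM in sham libraries 1 to 3, from 48 to 87 reads a library. The tumour libraries lay between sham library 3 and the other sham libraries. The means were 2.72 ± 0.13 and 3.11 ± 0.84 CPM (SD, n = 3 each), a log2 difference of -0.19. Gamt, which encodes the methyltransferase of the completing step and is not among the 9, had 11.01, 11.6 and 10.5 CPM in tumour libraries 1 to 3, against 10.1, 12.5 and 25.2 CPM in sham libraries 1 to 3. Its log2 difference was -0.53 (SE 0.33, edgeR adjusted p = 0.304), and the sham mean was raised by sham library 3.

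Slc6a8, the creatine transporter gene, lies on chromosome X from 73673150 to 73682502, plus strand. It had 212, 200.1 and 205 CPM in tumour libraries 1 to 3, against 238, 247 and 162 CPM in sham libraries 1 to 3. As for Ak3 and Gatm, the tumour libraries lay between sham library 3 and the others. The means were 206 ± 6.06 and 216 ± 47.1 CPM (SD, n = 3 each), a log2 difference of -0.07, with -0.24 against sham libraries 1 and 2 and 0.35 against sham library 3. Unlike the gene, the transcript Slc6a8-204 was set apart between groups. It had 20.6, 18.7 and 15.05 TPM in tumour libraries 1 to 3, against 3.23, 2.17 and 9.05 TPM in sham libraries 1 to 3. That was 18.0%, 19.4% and 15.01% of the gene's TPM in the tumour libraries and 2.83%, 1.84% and 11.5% in the sham libraries. Slc6a8-204 codes for 635 residues, as does Slc6a8-203, but is annotated with a last exon of 681 bases, against 1543 bases in Slc6a8-203 and Slc6a8-201. Slc6a8-203 was lower in the tumour libraries than in sham libraries 1 and 2, with 30.3, 33.4 and 37.7 TPM in the tumour libraries and 50.5, 61.1 and 33.3 TPM in the sham libraries. Such splits are Salmon's estimates over shared exons and carry more error than gene sums.

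The order of the 9 genes by mean TPM was Ckb, Ak3, Slc6a8, Ak1, Ak6, Ak4, Ak5, Gatm and Ckmt1 in the tumour libraries. In the sham libraries it was Ckb, Ak1, Ak3, Slc6a8, Ak6, Ak5, Gatm, Ak4 and Ckmt1. Within the tumour group Slc6a8, Ak1 and Ak6, at 104 ± 9.56, 93.4 ± 1.86 and 89.7 ± 4.05 TPM (SD, n = 3), had overlapping or nearly touching ranges. Within the sham group Ak1, Ak3, Slc6a8 and Ak6 ran from 178 ± 44.8 to 102 ± 6.87 TPM, and neighbours overlapped. The place of Ak1 above Ak3 in the sham order came from sham library 3, since Ak3 was the higher in sham libraries 1 and 2. Ak4 stood above Ak5 and Gatm in the tumour order and below both in the sham order. With Ak6 taken as Ak6-201, at 12.9 ± 1.29 TPM in the tumour and 14.3 ± 0.92 TPM in the sham libraries (SD, n = 3 each), Ak4 also stood above Ak6 in the tumour order and below it in the sham order. With only its full-length transcripts, at 14.5 ± 1.21 TPM, Ak4 overlapped Ak6-201 in the tumour libraries.

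The genes whose profiles over the 6 libraries were most like that of Ak4 were Ankrd37, Galnt15, Trib3, Slc16a3 and Nptx1. Likeness was the root mean square difference of mean-centred log2 CPM, over 11312 genes with a mean of at least 5 CPM, and was 0.33 to 0.60. The profile of Ak4 is mainly its difference between the groups. The ranking therefore finds genes with a similarly large difference, here 3.56 to 5.38 on the log2 scale. Shared regulation was not tested. Slc16a3, the gene of a lactate and monocarboxylate exporter, had 88.6, 87.6 and 86.7 CPM in tumour libraries 1 to 3, against 1.80, 1.62 and 2.90 CPM in sham libraries 1 to 3. Ankrd37, which encodes an ankyrin repeat protein, had 16.1, 12.4 and 14.97 CPM in the tumour libraries, against 0.704, 0.582 and 0.544 CPM in the sham libraries. For Ak1 the genes with the most similar profiles were Mgat5, Igdcc4, Pgd, Col3a1 and Cyb5b, at 0.03 to 0.056. Pgd, a gene of the pentose phosphate pathway, had 103, 99.8 and 100.04 CPM in tumour libraries 1 to 3, against 177, 185 and 239 CPM in sham libraries 1 to 3. Col3a1, a collagen gene and fibroblast marker, had 568 to 600.1 CPM in the tumour libraries and 1063, 1084 and 1427 CPM in sham libraries 1 to 3. Ckmt1 was the other gene with a wide spread, but with 6 to 19 reads a library its likest genes are not read.

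Other genes of the same pathways were tested in the fit over all genes. Their 5 lists were also chosen with earlier results of these data known. Nothing about the pathways is therefore read from how many listed genes were called, here or per list. Of 60 genes in 5 lists, 53 were tested. Of these 9 rose and 10 fell (edgeR adjusted p under 0.05), beside 10.5% and 10.4% of all tested genes. Together 35.8% of the 53 were called, beside 20.9% of all tested genes. The median log2 difference was -0.04, beside -0.02 over all tested genes. The counts depended on the libraries: 2, 2 and 3 rose and 3, 3 and 1 fell without tumour library 1, 2 or 3, and 6 rose and 5 fell without sham library 1. Without sham library 2 it was 5 and 4, and without sham library 3, when 57.7% of all genes were called, it was 14 and 20. Prkab2, Shmt2 and Slc25a5 kept their call in all 11 alternatives, and each of the other 16 called genes lost it without at least 1 library.

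**Figure D4:**
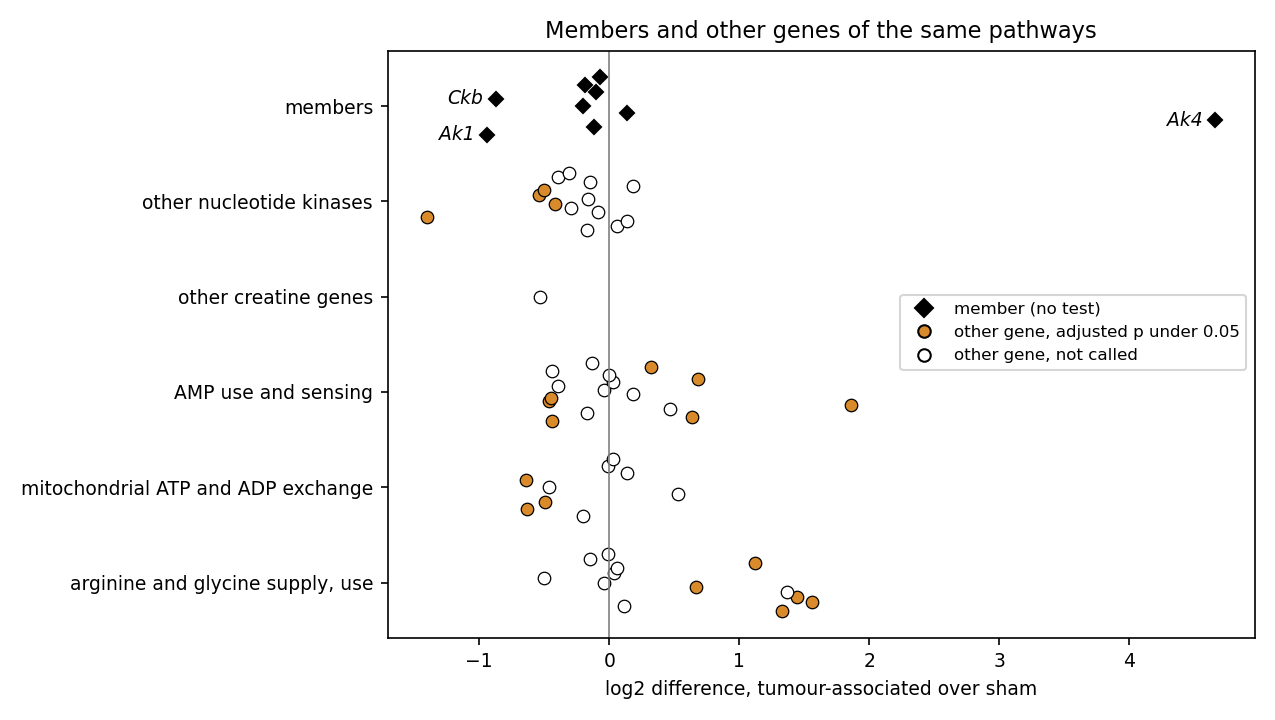
Log2 difference (x axis, tumour-associated over sham) of the 9 genes (diamonds, no test) and of the tested genes in 5 lists of other genes of the same pathways (circles, filled where the edgeR adjusted p was under 0.05). Ak4 lies at 4.66, beyond all listed genes, Ckb and Ak1 lie at -0.87 and -0.94, and the called genes of arginine and glycine supply and use all lie above 0.

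Among 14 other nucleotide kinase genes, all tested, 4 fell and 0 rose, with a median log2 difference of -0.23. Nme1 and Nme2, which encode nucleoside diphosphate kinases that pass phosphate from ATP to other nucleotides, fell by 0.54 (SE 0.08, edgeR adjusted p = 0.00812) and by 0.50 (SE 0.11, adjusted p = 0.0208) on the log2 scale. Nme2 had 354, 384 and 392 CPM in tumour libraries 1 to 3, against 560, 565 and 473 CPM in sham libraries 1 to 3; Nme1 and Nme2 are close paralogs, so their levels are less certain. Guk1, the guanylate kinase gene, fell by 0.42 (adjusted p = 0.0144), and Ak9 fell by 1.40 (adjusted p = 0.0272) from low levels of 1.603 to 1.78 CPM in the tumour and 2.72 to 6.07 CPM in the sham libraries. Ak7, which encodes an adenylate kinase of motile cilia and was named after its values were seen, was low in sham library 3. Ak7 had 9.94, 10.9 and 11.3 CPM in tumour libraries 1 to 3, against 14.2, 15.1 and 1.45 CPM in sham libraries 1 to 3 (log2 difference 0.06, adjusted p = 0.962).

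Of 19 genes of AMP use and sensing 16 were tested, and 4 rose and 3 fell, with a median log2 difference of -0.02. Prkab2, the gene of a beta subunit of the AMP-activated kinase AMPK, had 43.0, 40.5 and 43.1 CPM in tumour libraries 1 to 3, against 25.9, 25.2 and 27.8 CPM in sham libraries 1 to 3. It rose 1.6-fold (log2 difference 0.68, SE 0.07, edgeR adjusted p = 0.00232). Stk11, which encodes the AMPK-activating kinase LKB1, rose by 0.32 on the log2 scale (SE 0.06, adjusted p = 0.0122), to 104 ± 2.25 CPM in the tumour libraries against 83.7 ± 2.83 CPM in the sham libraries (SD, n = 3 each). Neither AMPK catalytic subunit gene was called, with log2 differences of -0.04 for Prkaa1 (adjusted p = 0.81) and -0.39 for Prkaa2 (adjusted p = 0.0938), both named after their values were seen.

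The other called genes of this list moved both ways. Adssl1, an adenylosuccinate synthase gene of the path from IMP to AMP, had 21.2, 19.2 and 21.2 CPM in tumour libraries 1 to 3, against 3.17, 4.28 and 9.57 CPM in sham libraries 1 to 3. It rose 3.63-fold (log2 difference 1.86, SE 0.39, edgeR adjusted p = 0.02). Without sham library 3 the log2 difference was 2.46, and without sham library 2 or any 1 tumour library the call was lost, at 1.69 to 1.91. Ampd3, an AMP deaminase gene, rose 1.56-fold to 193 ± 1.91 CPM in the tumour libraries, against 124 ± 20.5 CPM in the sham libraries (SD, n = 3 each; adjusted p = 0.0161 by edgeR). Nt5c, a 5'-nucleotidase gene, fell by 0.46 on the log2 scale (adjusted p = 0.0123). The other genes that fell, Ampd2 (-0.44, adjusted p = 0.0287) and Nt5c2 (-0.45, adjusted p = 0.0396), were named after their values were seen.

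Of 10 genes that move ATP and ADP across the mitochondrial membranes 9 were tested, and 3 fell and 0 rose, with a median log2 difference of -0.20. Slc25a5, an adenine nucleotide translocase gene, had 194, 199 and 191 CPM in tumour libraries 1 to 3, against 304, 299 and 301 CPM in sham libraries 1 to 3. It fell by 0.63 on the log2 scale (SE 0.07, edgeR adjusted p = 0.00237), and the sham libraries, sham library 3 included, were alike for this gene. Slc25a42, a mitochondrial carrier gene for coenzyme A and adenine nucleotides, fell by 0.64 (adjusted p = 0.0143). Slc25a23, a carrier gene for ATP-magnesium and phosphate, fell by 0.49 (adjusted p = 0.0253). The other translocase gene tested, Slc25a4, had a log2 difference of -0.20 (adjusted p = 0.126) and was named after its value was seen.

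Of 14 genes that supply or use arginine and glycine, the substrates of GATM, 13 were tested, and 5 rose and 0 fell, with a median log2 difference of 0.11. Shmt2, the gene of the mitochondrial enzyme that makes glycine from serine, had 70.0, 70.3 and 71.9 CPM in tumour libraries 1 to 3, against 29.6, 29.5 and 38.8 CPM in sham libraries 1 to 3. It rose 2.17-fold (SE 0.12 on the log2 scale, edgeR adjusted p = 0.00242). Slc7a1, a transporter gene for arginine and other cationic amino acids, rose 2.51-fold to 104 ± 1.47 CPM in the tumour libraries, against 41.3 ± 17.5 CPM in the sham libraries (adjusted p = 0.0188 by edgeR). Slc7a3, of the same transporter family, rose 2.94-fold (adjusted p = 0.0144) at 2.88 to 5.01 CPM in the tumour libraries and 1.27 to 1.72 CPM in the sham libraries. The glycine transporter gene Slc6a9 rose 2.72-fold (adjusted p = 0.0252), and Ass1, which encodes argininosuccinate synthase, rose 1.59-fold (adjusted p = 0.0414).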

How the data were processed

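The authors deposited, for each of 6 libraries, estimated counts and TPM values per transcript. The submitters' processing notes name mm10, Salmon 0.8.2 and DESeq2 1.28.1. The sources used here do not give the kit, strand setting or read length. Per the file headers, lengths and effective lengths are in bases. Of 113116 transcripts, 112841 matched GENCODE M21 (GRCm38, the assembly of mm10) by identifier without version. The estimated counts were added up over each gene's transcripts and then rounded. TPM values deposited by the authors were summed per gene. Without strand, overlapping genes cannot be separated.

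Counts were tested with edgeR 4.0.16 (R 4.3.3): filterByExpr (minimum count 10, minimum total 15), TMM, robust quasi-likelihood fit on group, and Benjamini-Hochberg adjustment over all tested genes at 0.05. Each SE is the log2 difference divided by the square root of F. Near copies were sought with BLAST+ 2.17.0 (at least 90% identity over 200 bases). The fits were tested on simulated data in which no library stood apart from its group, as sham library 3 does here. That test therefore does not cover the effect of such a library. The labels do not say whether the replicate numbers pair libraries. Same-numbered libraries had correlations of deviations of -0.019 to 0.008, and differently numbered ones -0.012 to 0.014. With 3 libraries per group and sham library 3 apart from its group, these values cannot decide it, and the main fit used no pairing. The members and lists were chosen with earlier results of these data known. Named genes are the members, Ckm, Ckmt2 and Gamt, up to 5 called genes per list by p (or the 2 most abundant), and the 5 genes nearest in profile to each of the 3 members of widest spread. A further named gene is not reported here.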

Additional observations from a re-analysis of the deposited data

How the results depend on the processing

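Among the 9 genes, the log2 difference of Ak4 ranged from 4.48 to 4.92, that of Ckb from -0.93 to -0.82 and that of Ak1 from -1.03 to -0.77 over the alternatives. Ckmt1 (-0.65 to 0.14) and Slc6a8 (-0.24 to 0.04) took both signs. In 12 of 13 fits, the main fit included, the members called were Ak1, Ak4 and Ckb, beside 6.17% to 20.9% of all tested genes. Without sham library 3 there were 6, when 57.7% of genes were called. Since the genes were chosen on this contrast, nothing is read from these calls. Using Ak6-201 alone or the full-length Ak4 transcripts alone, chosen after seeing the data, gave -0.19 and 4.65.

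Over all genes, 1506 rose and 1492 fell. Leaving out each library gave 536 to 4250 higher and 355 to 4179 lower. For the 53 listed genes of the same pathways these ranges were 2 to 14 and 1 to 20. With transcript length offsets 969 genes fell. With the replicate number as a block, 829 genes rose and 607 fell, and of the listed genes 6 rose and 4 fell. The cause was not tested. DESeq2 and its size factors, and no filter on low counts, kept the counts within 1.5 times.

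Levels near 10 reads (Ckmt1) and the split between transcripts of a gene are limited by depth and by shared exons.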
